A study of Fukomys damarensis and Heterocephalus glaber and Cavia porcellus with 28 samples.

Results

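The livers of 4 rodent species were compared for the genes of 8 hepatocyte transcription factors: Hnf4a, Foxa1, Foxa2, Foxa3, Cebpa, Onecut1, Prox1 and Nr5a2. Members were taken by symbol, through the mouse Ensembl identifiers of the liver table. This rule did not use their values, but the members were chosen with earlier results of these data known. Of the 8 genes, 6 were analysed among 13928 rows: Hnf4a (ENSMUSG00000017950), Foxa2 (ENSMUSG00000037025), Foxa3 (ENSMUSG00000040891), Onecut1 (ENSMUSG00000043013), Prox1 (ENSMUSG00000010175) and Nr5a2 (ENSMUSG00000026398). Foxa1 and Cebpa were not analysed here. All 6 had at least 153 reads in every liver library and passed the filter on low values.

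Hepatocyte identity is held by a network of transcription factors that bind one another's genes. HNF4A is a nuclear receptor that activates much of the hepatocyte programme. The FOXA proteins are pioneer factors that open chromatin at liver enhancers. ONECUT1 (HNF6) acts in liver and bile duct development, PROX1 in hepatoblast outgrowth and in lymphatic endothelium, and NR5A2 (LRH-1) is a nuclear receptor of bile acid and cholesterol metabolism.

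The naked mole-rat and the Damaraland mole-rat are long-lived African rodents that live underground, and the series compares them with the guinea pig and the mouse as outgroups. Ribosomal RNA was removed from total RNA before sequencing. Liver came from 4 male naked mole-rats aged 13 to 17 months, 5 Damaraland mole-rats aged 36 to 48 months, 3 male guinea pigs aged 2.3 months and 2 male mice aged 2 months. Damaraland replicate 4 was female and the other 4 were male; no strain, treatment or genotype is given. The animal of 1 Damaraland liver is 36 months old on its liver label and 48 months on its heart label. Each liver library came from its own animal, so the spread is between animals. Species, age and any processing of species at different times cannot be told apart in this design.

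Liver libraries held 11220505 to 21467939 reads, and 10887 genes were tested. The 17 hepatocyte markers analysed took 14.8% to 20.83% of scaled reads in naked mole-rat, 16.38% to 19.29% in Damaraland, 11.29% to 15.12% in guinea pig and 12.19% to 13.26% in mouse liver. Apoa1 is an exception among them, with a mean value of 7.18 in guinea pig against 14.64 to 17.14 in the other species. Pancreas markers summed to at most 14 scaled reads in the other species and to 288 to 454 in mouse, where Cela1 carried 354 on average; Cpa1 was at 0 in every naked mole-rat, guinea pig and mouse liver library. In whole liver, fewer cells of a type and less RNA per cell cannot be told apart.

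Values below are those of the deposited table, variance-stabilised by its authors to resemble log2, where 4.2893 stands for 0 reads. A difference of 1 is near 2-fold for a well-read gene and compressed for a rare gene: a 2-fold change from 10 scaled reads moved the value by 0.392, and from 1000 scaled reads by 0.973. Scaled reads are reads after division by a size factor for each library. They are not corrected for gene length, so levels are not compared between genes. The ratio of Foxa3 to Foxa2 is given only as a description, to be read between species. A difference between species in the same gene can also carry the length and annotation of that gene in each species, which are not given in the sources used here; their part in the differences was not tested. A gene was called where the limma adjusted p was under 0.05 and the difference at least 1.

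Nr5a2 was the only 1 of the 6 members called in a single species against each of the other 3: it was lower in naked mole-rat, by 2.85-fold to 3.09-fold in scaled reads. Such calls were common: of 10887 genes tested, 1119, 959, 1021 and 1324 were called in naked mole-rat, Damaraland mole-rat, guinea pig and mouse alone. Foxa3 was high in naked and low in Damaraland liver, a 3.77-fold difference in scaled reads, while Foxa2 had its lowest mean in naked mole-rat. Prox1 was higher in naked mole-rat than in guinea pig, and Hnf4a differed from guinea pig by less than the size needed for a call. Onecut1 varied so much among guinea pigs and mice that its calls rested on single animals. No member was called in both mole-rats against both outgroups, where 6.29% of all genes tested were.

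**Figure D1:**
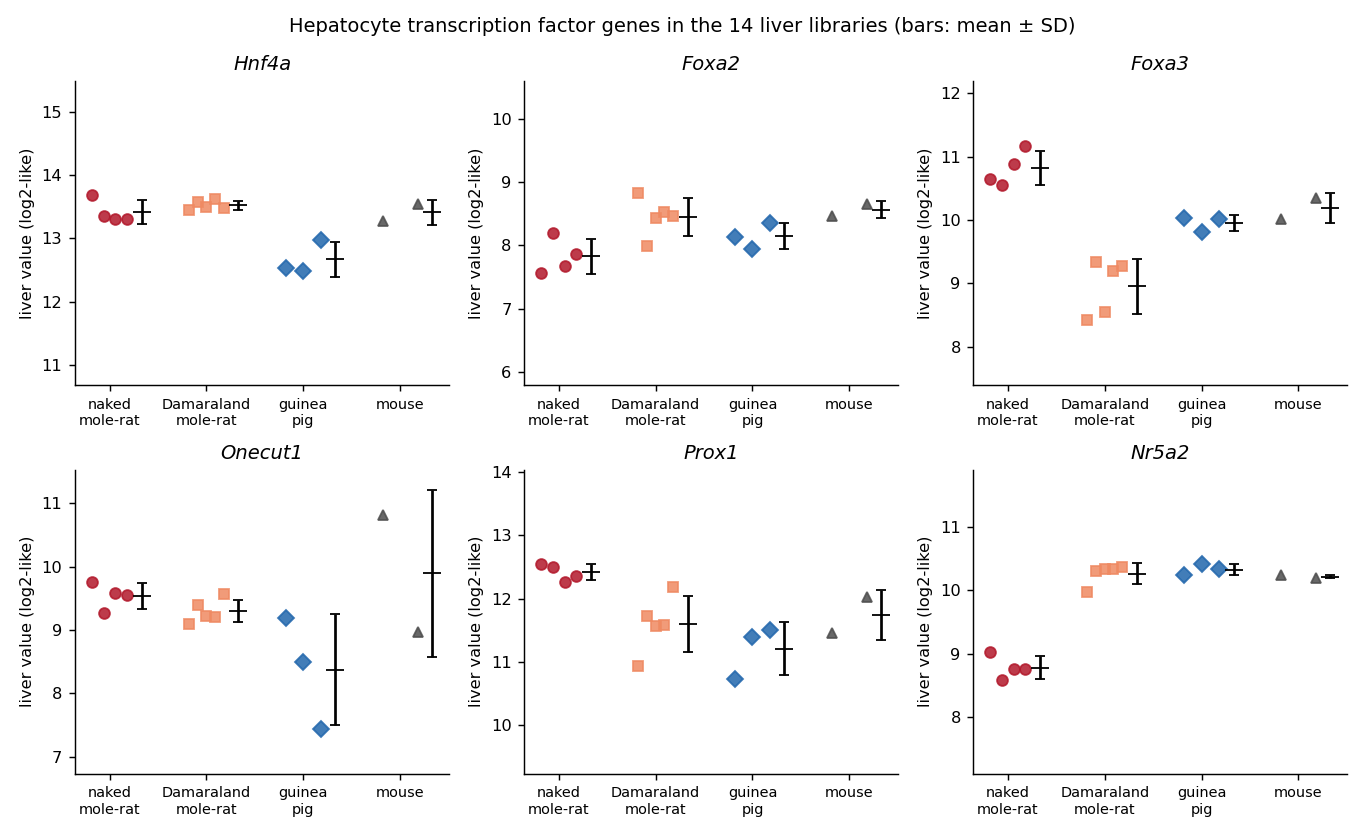
Values of the 6 genes in each of the 14 liver libraries, on the log2-like scale; symbols are animals and bars are the mean ± SD of each species, with the same axis length in every panel. Nr5a2 of the 4 naked mole-rats sits between 8.59 and 9.02, below all other livers (9.97 to 10.42), and Onecut1 spreads widely in guinea pig and mouse.

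Over the 6 species pairs, the members gave 8 calls in 36 comparisons (22.2%), where all genes tested gave calls in 37.6%. Between naked and Damaraland mole-rat 2 of 6 were called, against 34.2% of all genes. Against guinea pig the naked mole-rat had 3 calls (37.8% of all genes) and the Damaraland mole-rat 0, where 36.2% of all genes were called; of these Damaraland differences, 3 had a limma adjusted p under 0.05. Against mouse each mole-rat had 1 call, where 41.2% of genes were called in naked and 39.2% in Damaraland mole-rat. Guinea pig and mouse differed for 1 member, where 37.2% of all genes did. In the mean of the mole-rats minus the mean of the outgroups 0 of 6 were called (28.1% of all genes), and 3 had a limma adjusted p under 0.05. Hnf4a and Foxa2 were called in none of the 6 pairs, as were 23.6% of all genes.

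Animals of a pair did not overlap for 3 of 6 members between the mole-rats, where this held for 57% of all genes. Naked mole-rat and guinea pig did not overlap for 5 members (64.5% of all genes), and naked mole-rat and mouse for 4 (71.9%). For Damaraland mole-rat it was 2 against guinea pig (60.3%) and 1 against mouse (68.4%). Guinea pig and mouse did not overlap for 2 (70.7%). The share of members was under that of all genes in each pair except naked mole-rat and guinea pig. With 6 members, 1 gene more would reverse this between the mole-rats and between naked mole-rat and mouse.

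**Figure D2:**
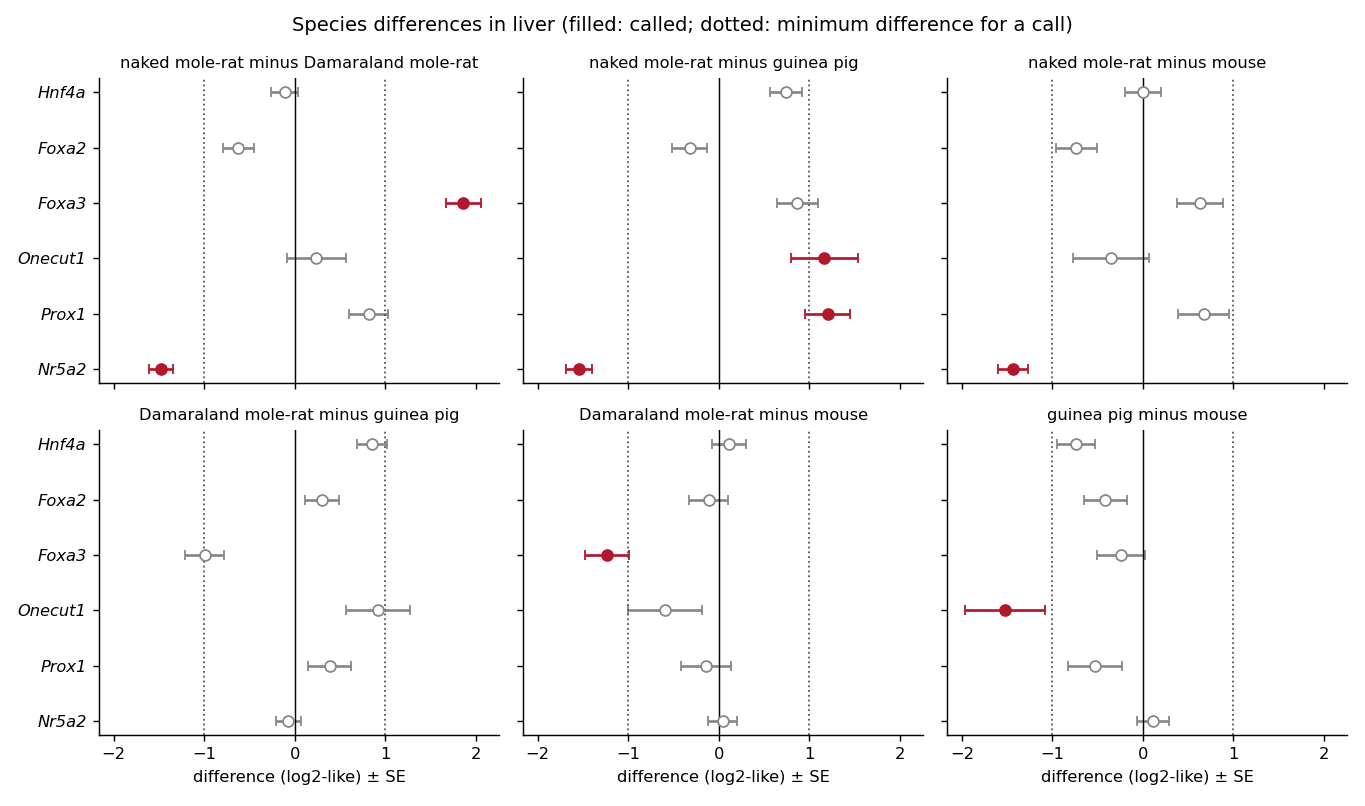
Difference in liver value for each gene (rows) in each species pair (panels), with the limma standard error as the bar; filled points are called and dotted lines mark differences of -1 and 1. Nr5a2 is called in all 3 panels that hold the naked mole-rat, and 5 of the 6 genes lie within 0.6 of 0 in the panel of Damaraland mole-rat minus mouse, where Foxa3 is at -1.23.

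Hnf4a encodes the nuclear receptor at the centre of the network. The 4 naked mole-rat livers had values of 13.69, 13.35, 13.31 and 13.30. The 5 Damaraland livers had 13.45, 13.57, 13.49, 13.63 and 13.48, and the 2 mouse livers 13.27 and 13.55. These 3 species overlapped, whereas all 3 guinea pig livers lay lower, at 12.54, 12.48 and 12.98. Mean scaled reads were 10929 and 11750 in the naked and Damaraland mole-rats, and 6556 and 10891 in the guinea pig and mouse.

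The guinea pig mean of Hnf4a was 0.74 under naked mole-rat (SE 0.17; limma adjusted p 0.00118), 0.85 under Damaraland mole-rat (SE 0.17; limma adjusted p 0.000226) and 0.74 under mouse (SE 0.21; limma adjusted p 0.00549), each short of the size threshold. Between naked mole-rat and mouse the difference was 0.00 (SE 0.20; limma adjusted p 0.994). Without guinea pig replicate 3, the Damaraland difference was 1.01 and was called (limma adjusted p 0.000136). The hepatocyte markers together also took a smaller share of reads in guinea pig than in Damaraland liver, with no overlap (at most 15.12% against at least 16.38%). Alb alone held a large part of that sum, as in guinea pig replicate 2, with 649468 of 1300622 scaled reads. Gene by gene the markers were mixed. In Damaraland mole-rat minus guinea pig, 4 of 17 were called higher and 4 lower, with a median difference of -0.38. The part of hepatocyte content in the Hnf4a difference was not tested. The 4 species means of Hnf4a spanned 0.85, and 17.3% of genes tested had a smaller span.

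Genes with the pattern nearest to a member were found by the root mean square difference of centred values over the 14 libraries. For Hnf4a these were Ctnna1, an adhesion gene encoding alpha-catenin, at 0.16, Zdhhc17 at 0.18 and Asb7 at 0.18, where the median over all genes tested was 0.74. Ctnna1 had means of 11.71, 11.70, 10.92 and 11.55 in naked mole-rat, Damaraland mole-rat, guinea pig and mouse, a likeness that its selection fixed.

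Foxa3, the FOXA member known for its role in adult liver glucose metabolism, had the largest gap between the mole-rats. Naked mole-rat livers had 10.65, 10.56, 10.89 and 11.17. Damaraland livers had 8.42, 9.33, 8.55, 9.20 and 9.27. The species did not overlap: the lowest naked mole-rat liver was more than 1 unit above the highest Damaraland liver. Mean scaled reads were 1793 ± 356 (SD, n = 4) and 476 ± 143 (SD, n = 5).

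The outgroups lay between the mole-rats for Foxa3. Guinea pig livers had 10.03, 9.81 and 10.02, and mouse livers 10.02 and 10.35, which overlapped (difference -0.24, SE 0.27; limma adjusted p 0.467). Every naked mole-rat liver was above every outgroup liver and every Damaraland liver below. Foxa3 was 1.86 higher in naked than in Damaraland mole-rat (SE 0.20; limma adjusted p 2.42e-07), and this ran from 1.73 to 1.96 over 25 alternative settings.

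Foxa3 was also lower in Damaraland mole-rat than in mouse, by -1.23 (SE 0.25; limma adjusted p 0.000315). Against guinea pig the Damaraland difference was -0.99 (SE 0.21; limma adjusted p 0.000604), just under the size threshold. It was called, at -1.02 to -1.19, with voom, array weights, a replicate block, median centring or quantile normalisation, and without any 1 of Damaraland replicates 2, 4 and 5 or guinea pig replicate 2. Naked mole-rat minus guinea pig was 0.87 (SE 0.22; limma adjusted p 0.00259) and minus mouse 0.63 (SE 0.25; limma adjusted p 0.0381), neither of which reached the size threshold. The nearest patterns were those of Flot2 at 0.19, Cpn1 at 0.25 and Rab11fip3 at 0.27 (median of all genes 1.04). Cpn1, which encodes the catalytic chain of the plasma carboxypeptidase N, had means of 12.06, 10.58, 11.40 and 11.81 in naked mole-rat, Damaraland mole-rat, guinea pig and mouse. Its likeness to Foxa3 was fixed by its selection.

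Foxa2, a FOXA factor of early liver specification and bile acid homeostasis, had 153 to 504 reads per library. Naked mole-rat livers had 7.56, 8.20, 7.68 and 7.86, and Damaraland livers 8.83, 7.99, 8.43, 8.53 and 8.47. Guinea pig livers had 8.14, 7.95 and 8.36, and mouse livers 8.47 and 8.66. The mole-rats overlapped through naked replicate 2 and Damaraland replicate 2, and the mice lay above all naked mole-rats.

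None of the 6 differences of Foxa2 was called. Naked minus Damaraland mole-rat was -0.62 (SE 0.17; limma adjusted p 0.00443) and naked mole-rat minus mouse -0.73 (SE 0.22; limma adjusted p 0.00844), each under the size threshold. The other 4 had limma adjusted p of 0.144 or more. Foxa2 is also expressed in bile duct cells, and 7 cholangiocyte markers summed to 2437 to 3392 scaled reads in naked mole-rat but 188 to 563 in Damaraland livers. Gene by gene, of 6 such markers tested, 3 were called higher and 1 lower in naked than in Damaraland mole-rat. The order of the sums is opposite to that of Foxa2, and the part of duct cells in the Foxa2 values was not tested. Its nearest patterns were Elp3 at 0.22, Exosc7 at 0.23 and Usp15 at 0.23 (median of all genes 0.74).

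Foxa2 and Foxa3 bind the same DNA motif, and their scaled reads were set against each other within each library, as a description. Naked mole-rat livers had 10.3, 5.74, 11.1 and 11.6 Foxa3 reads per Foxa2 read. Damaraland livers had 0.731, 2.80, 1.10, 1.66 and 1.83. Guinea pig livers had 4.10, 4.10 and 3.43, and mouse livers 3.17 and 3.47. The ratios of the mole-rats lay on either side of the outgroups with no overlap. Foxa3 alone already had this order without overlap, so the ratio adds no separate evidence. Damaraland replicate 1 had the lowest ratio, from 274 Foxa3 and 375 Foxa2 reads. The ratio carries the lengths of both genes in each species and how related sequences were counted, neither of which is given in the sources used here.

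**Figure D3:**
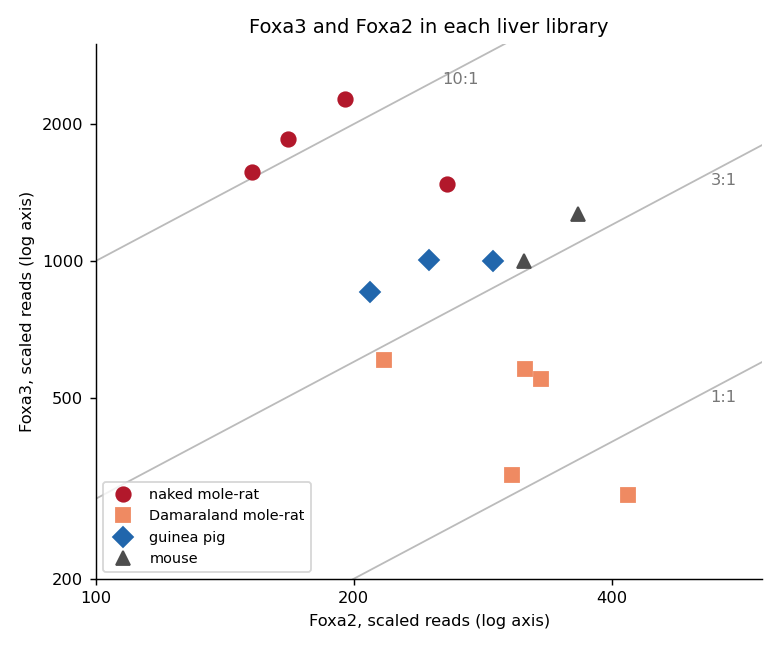
Scaled reads of Foxa3 against Foxa2 in each liver library, both on log axes; grey lines mark 1, 3 and 10 Foxa3 reads per Foxa2 read. Naked mole-rat livers lie above the outgroups at 5.74 to 11.6 and Damaraland livers below them at 0.731 to 2.80, an order that Foxa3 alone already had.

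Nr5a2 gave the most even separation. The 4 naked mole-rat livers had 9.02, 8.59, 8.76 and 8.76. Damaraland livers had 9.97, 10.30, 10.33, 10.34 and 10.37, guinea pig livers 10.24, 10.42 and 10.34, and mouse livers 10.24 and 10.20. Every naked mole-rat liver was below every other liver, and the other 3 species overlapped. Mean scaled reads were 404 ± 55.8 (SD, n = 4) in naked mole-rat, against 1193, 1249 and 1152 in Damaraland mole-rat, guinea pig and mouse.

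Nr5a2 was lower in naked mole-rat by -1.48 against Damaraland mole-rat (SE 0.13; limma adjusted p 2.13e-08), a 2.95-fold difference in scaled reads. Against guinea pig the difference was -1.55 (SE 0.15; limma adjusted p 6.78e-08) and against mouse -1.44 (SE 0.17; limma adjusted p 8.82e-07). It was thus called in naked mole-rat alone, and lower. Of all genes tested, 4.45% were lower in naked mole-rat alone, and 1119 of 10887 were called in it alone in either direction. The 3 differences stayed between -1.63 and -1.31 in all 25 alternative settings of each, and were called in every one. Differences among Damaraland mole-rat, guinea pig and mouse were -0.07 to 0.11, with limma adjusted p of 0.61 or more. Its spread within species was small: the residual SD was 0.15, and 94.4% of genes tested had one as large or larger. Nearest to it were Ermp1 at 0.17, Slc10a3 at 0.19 and Cdk7 at 0.21 (median of all genes 0.94), of which Slc10a3 had a naked mole-rat mean of 4.90, near the floor.

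Prox1 encodes a homeodomain factor that acts with HNF4A in hepatocytes and marks lymphatic endothelium. Naked mole-rat livers had 12.54, 12.50, 12.27 and 12.35, above all 10 other livers. Damaraland livers had 10.94, 11.73, 11.56, 11.58 and 12.18, guinea pig livers 10.73, 11.40 and 11.51, and mouse livers 11.46 and 12.02. The other 3 species overlapped, with a 2.39-fold range of scaled reads among Damaraland mole-rats alone.

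Prox1 was 1.20 higher in naked mole-rat than in guinea pig (SE 0.25; limma adjusted p 0.000417), a 2.27-fold difference in scaled reads. Without guinea pig replicate 1 this was 0.96 (limma adjusted p 0.00439), and with quantile normalisation also 0.96, both under the size threshold. Naked minus Damaraland mole-rat was 0.82 (SE 0.22; limma adjusted p 0.0033) and naked mole-rat minus mouse 0.68 (SE 0.28; limma adjusted p 0.045), both not called. The lymphatic gene Flt4, the 1 of 4 lymphatic markers analysed, had the opposite order: its means were 8.83 and 9.81 in the naked and Damaraland mole-rats, and 10.45 and 9.32 in the guinea pig and mouse. As 1 gene, Flt4 does not give the content of lymphatic cells, and their part in the Prox1 values was not tested. Nearest to Prox1 were Secisbp2l at 0.24, Nr2c1 at 0.24 and Rel at 0.24 (median of all genes 0.85).

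Onecut1, a cut-homeodomain factor, varied widely within species: its residual SD was 0.59, and 2.73% of genes tested had one as large. Naked mole-rat livers had 9.76, 9.26, 9.58 and 9.55, and Damaraland livers 9.10, 9.39, 9.22, 9.21 and 9.56. Guinea pig livers had 9.19, 8.49 and 7.44, and mouse livers 10.82 and 8.96. The mole-rats were thus close together, whereas scaled reads ran over a 3.98-fold range among the 3 guinea pigs and 3.85-fold between the 2 mice.

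Onecut1 was 1.17 higher in naked mole-rat than in guinea pig (SE 0.37; limma adjusted p 0.0105). It was also called lower in guinea pig than in mouse, although their animals overlapped (difference -1.52, SE 0.44; limma adjusted p 0.00709). Without guinea pig replicate 3 the first was 0.70 (limma adjusted p 0.0996). Without mouse replicate 1 the second was -0.59 (limma adjusted p 0.278), and with only guinea pig and mouse in the fit it was -1.52 with a limma adjusted p of 0.0808. Without mouse replicate 2, both mole-rats were called lower than the remaining mouse, by -1.28 and -1.52. Damaraland mole-rat minus guinea pig was 0.92 (SE 0.35; limma adjusted p 0.0293), and was called without guinea pig replicate 1, at 1.33, with array weights, at 1.38, and with voom, at 1.04.

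The gene nearest to Onecut1 was Id2, an inhibitor of basic helix-loop-helix factors, at a root mean square difference of 0.29 (median of all genes 0.96). The next were Speg and Fbxo44, both at 0.43 and both near the floor, with species means of at most 6.06. Id2 was 9.71, 9.44, 9.82 and 9.58 in naked mole-rat, and 9.34, 9.55, 9.49, 9.74 and 9.83 in Damaraland livers. It was 9.01, 8.08 and 8.24 in guinea pig and 10.97 and 9.49 in mouse. Mouse replicate 1 was the highest liver for both genes and mouse replicate 2 lay more than 1 unit lower for both. Guinea pig replicate 1 was the highest of its species for both, but the lowest was replicate 3 for Onecut1 and replicate 2 for Id2. The likeness of Id2 to Onecut1 was fixed by its selection over these same libraries.

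**Figure D4:**
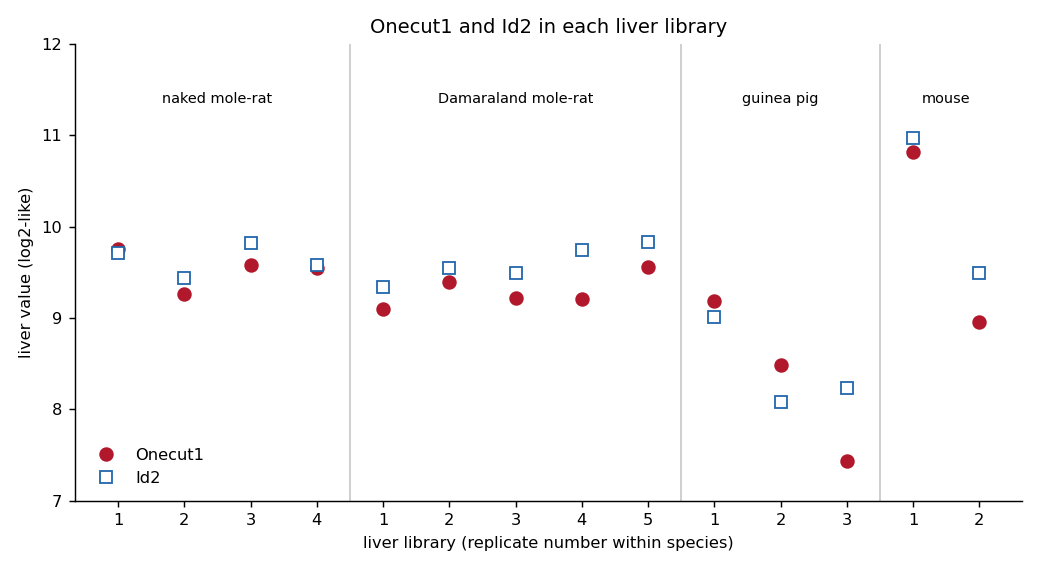
Log2-like values of Onecut1 (filled) and Id2 (open) in each liver library, by replicate number within species. Both genes are near 9.1 to 9.8 in all mole-rats, are as low as 7.44 and 8.08 in guinea pig and reach 10.82 and 10.97 in mouse replicate 1. Id2 was selected for its likeness to Onecut1 over these libraries.

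Among 41 other hepatocyte regulators, 36 were analysed. Between the mole-rats 4 were higher and 11 lower in naked mole-rat (41.7% called, against 34.2% of all genes), with a median difference of -0.36 (all genes -0.03). Naked mole-rat minus guinea pig gave 5 higher and 9 lower (38.9%, against 37.8%), with a median of 0.17 (all genes 0.01). Minus mouse it gave 2 higher and 14 lower (44.4%, against 41.2%), with a median of -0.34 (all genes 0.05). Damaraland mole-rat minus guinea pig gave 9 higher and 7 lower (44.4%, against 36.2%; median 0.22), and minus mouse 5 and 10 (41.7%, against 39.2%; median -0.30). Guinea pig minus mouse gave 1 higher and 9 lower (27.8%, against 37.2%; median -0.43).

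Of these regulators, 0 were higher and 4 lower in both mole-rats against both outgroups, where 6.29% of all genes tested were called in either direction. Hlf, a PAR-domain factor with daily rhythms, had the largest such difference, with means of 5.99 and 7.94 in naked and Damaraland mole-rat against 10.31 and 9.77 in guinea pig and mouse (mean difference -3.08, SE 0.15; limma adjusted p 1.52e-11). Tbx3, a T-box factor of hepatoblast growth and of pericentral hepatocytes, followed with means of 8.88 and 7.56 against 10.26 and 10.26 (mean difference -2.04, SE 0.16; limma adjusted p 7.19e-09). The other 2, named after their values were seen, were Xbp1, a factor of the secretory pathway, at -1.74 and the clock gene Nr1d1 at -1.46. The part of the time of day of sampling in the Hlf and Nr1d1 differences was not tested. Nr1d1 rests on single libraries: in Damaraland mole-rat minus guinea pig it was under the size threshold, at -0.92 to -0.99, without any 1 of Damaraland replicates 3 and 4 and guinea pig replicates 2 and 3. In Damaraland mole-rat minus mouse it was -1.12 without mouse replicate 1 (limma adjusted p 0.0705).

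Known targets of HNF4A were followed in 21 of 27 listed genes. Damaraland mole-rat minus guinea pig, where Hnf4a differed by 0.85, gave 7 targets higher and 2 lower (42.9% called, against 36.2% of all genes), with a median of 0.17 (all genes 0.03). Naked mole-rat minus guinea pig gave 5 higher and 6 lower (52.4%, against 37.8%), with a median of 0.29. Guinea pig minus mouse gave 4 and 4 (38.1%, against 37.2%), with a median of -0.24. Targets were also called in the pairs where Hnf4a had a limma adjusted p of 0.527 or more. Naked minus Damaraland mole-rat gave 3 and 6 (42.9%, against 34.2%). Naked mole-rat minus mouse gave 3 and 4 (33.3%, against 41.2%), and Damaraland mole-rat minus mouse 5 and 4 (42.9%, against 39.2%). Named after their values were seen, the 5 higher in naked mole-rat than in guinea pig were Apoa1 (7.46), Cyp7a1 (1.782), Tat (1.116), Mttp (1.925) and Cyp27a1 (3.011). The Apoa1 difference comes with the guinea pig value far under all other species given above. The part of gene annotation in it was not tested. The 6 lower were the apolipoprotein genes Apoa2 (-1.88) and Apoa4 (-2.78), Ttr (-1.07), F12 (-1.46), G6pc (-1.38) and Hpd (-1.11). Tat was not called without naked replicate 4 (0.88) or without guinea pig replicate 2 (0.75). Among these 21, 1 was higher and 0 lower in both mole-rats against both outgroups, where 6.29% of all genes tested were called in either direction. It was Cyp27a1, a bile acid synthesis enzyme, with means of 14.66 and 13.99 against 11.65 and 12.62 (mean difference 2.19, SE 0.16; limma adjusted p 2.23e-09).

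For NR5A2, 11 of 13 listed targets were analysed. In naked minus Damaraland mole-rat, where Nr5a2 was 2.95-fold lower, 0 targets were higher and 1 lower (9.09% called, against 34.2% of all genes), with a median of -0.17 (all genes -0.03). That target was Nr0b2 (SHP), a repressor of bile acid synthesis, at -1.04 (SE 0.40; limma adjusted p 0.0304), named after its values were seen. Nr0b2 was 10.47, 10.78, 9.24 and 11.19 in naked mole-rat and 12.19, 10.51, 11.33, 11.32 and 11.94 in Damaraland livers, which overlapped. It was not called without any 1 of naked replicates 1 and 3 and Damaraland replicates 1 and 5, and was -0.64 without naked replicate 3 (limma adjusted p 0.145). In naked mole-rat against guinea pig 5 targets were higher and 2 lower (63.6%, against 37.8%), with a median of 0.37, and Apoa1 was among the 5. Against mouse 1 was higher and 4 lower (45.5%, against 41.2%), with a median of 0.28. Targets were also called in the pairs where Nr5a2 was not. These were 54.55% in Damaraland mole-rat minus guinea pig (against 36.2%) and 45.5% minus mouse (against 39.2%). In guinea pig minus mouse it was 63.6% (against 37.2%).

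Cyp7a1, the rate-limiting enzyme of bile acid synthesis and a target of NR5A2 and HNF4A, was 11.14, 12.22, 12.35 and 11.94 in naked mole-rat livers. Damaraland livers had 10.15, 11.99, 10.56, 11.14 and 10.39, guinea pig livers 11.83, 8.67 and 9.90, and mouse livers 9.53 and 10.37. Values overlapped between naked mole-rat and both Damaraland mole-rat and guinea pig. Cyp7a1 was 1.78 higher in naked mole-rat than in guinea pig (SE 0.55; limma adjusted p 0.00935) and 1.96 higher than in mouse (SE 0.63; limma adjusted p 0.0115). Against Damaraland mole-rat it was 1.07 (SE 0.49; limma adjusted p 0.0616), which was not called. Cyp7a1 rests on single libraries: without guinea pig replicate 2 it was 1.05 against guinea pig (limma adjusted p 0.0883), and without mouse replicate 1 it was 1.54 against mouse (limma adjusted p 0.130). Against Damaraland mole-rat it was called, at 1.07 to 1.35, without any 1 of naked replicate 1, Damaraland replicate 2 and guinea pig replicates 1 and 2.

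FOXA targets were analysed in 10 of 12 listed genes. Between the mole-rats, which differed most in Foxa3, 3 were higher in naked mole-rat and 3 lower (60% called, against 34.2% of all genes), with a median of -0.06 (all genes -0.03). Named after their values were seen, the higher ones were Tat, an amino acid enzyme, at 1.66, Igfbp1, an insulin-responsive binding protein, at 3.14, and Afp, the fetal serum protein alpha-fetoprotein, at 4.24. The lower ones were Pck1 and G6pc of gluconeogenesis at -1.08 and -1.51, and Tdo2 of tryptophan breakdown at -2.18. Pck1 was not called without naked replicate 1 (-0.93) or without naked replicate 2 (-0.97). Naked mole-rat minus guinea pig gave 3 and 3 (60%, against 37.8%), and minus mouse 3 and 2 (50%, against 41.2%). Damaraland mole-rat gave 2 and 1 against guinea pig (30%, against 36.2%) and 0 and 2 against mouse (20%, against 39.2%). Guinea pig minus mouse gave 0 and 2 (20%, against 37.2%).

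Afp was uneven among naked mole-rats, at 10.80, 11.46, 6.29 and 9.55. Damaraland livers had 5.17 to 5.45, guinea pig livers 6.44 to 6.74, and mouse livers 5.66 and 6.06. Naked replicate 3 was at the level of the guinea pigs, and the other 3 naked mole-rats were above all other livers; the difference from Damaraland mole-rat was 5.31 without replicate 3. Alb, the main plasma protein gene, had means of 20.82 and 20.60 in the naked and Damaraland mole-rats, and 19.90 and 19.68 in the guinea pig and mouse. It was 1.14 higher in naked mole-rat than in mouse (SE 0.47; limma adjusted p 0.0418), and its other 5 species pairs were not called. That call was lost without any 1 of 7 libraries (naked replicates 1, 2 and 3, Damaraland replicates 1 and 5, and mouse replicates 1 and 2), with limma adjusted p up to 0.190. Without naked replicate 4, Alb was also called against guinea pig, at 1.11. Targets of CEBPA were analysed in 11 of 14 listed genes, with 3 higher and 2 lower in naked than in Damaraland mole-rat (45.5%, against 34.2%; median 0.63). In naked mole-rat 36.4% were called against guinea pig (all genes 37.8%) and 36.4% against mouse (41.2%). In Damaraland mole-rat it was 36.4% against guinea pig (36.2%) and 27.3% against mouse (39.2%). Guinea pig minus mouse gave 27.3% (37.2%). In both mole-rats against both outgroups 0 were called, where 6.29% of all genes were.

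Heart libraries gave the level of the same genes in an organ without hepatocytes. They came from 3 naked mole-rats aged 13 to 17 months, 5 Damaraland mole-rats aged 36 to 48 months, 3 guinea pigs aged 2.3 months and 3 mice aged 2 months, all male. Of these 14 animals, 10 also gave a liver library. The heart table was transformed separately, with 5.3645 for 0 reads, so no test was made across tissues. Foxa2 had 0 reads in 8 of 14 hearts, Foxa3 in 5 and Onecut1 in 1. Their highest counts, of 15, 35 and 49 reads, were all in naked mole-rat heart replicate 1. Outside naked mole-rat they had at most 1, 7 and 4 reads. Nr5a2 had 15 to 107 reads. Prox1, which also acts in cardiac muscle, had 838 to 3512 scaled reads in every heart. Its heart values were 10.94, 10.63 and 10.90 in naked mole-rat and 11.62, 11.40 and 11.81 in mouse, so that mouse was the higher species in heart and the lower in liver.

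Hnf4a stood out in the hearts of naked mole-rats, with 289, 158 and 76 reads and values of 8.33, 7.45 and 8.49. Damaraland hearts had 6.39, 7.75, 6.14, 5.98 and 6.39, guinea pig hearts 5.96, 6.14 and 6.02, and the 3 mouse hearts 5.85 to 6.04. Damaraland replicate 2 overlapped the naked mole-rats, and no other heart reached them. Foxa3, from few reads, was also higher in every naked mole-rat heart, at 6.22 to 6.55 against at most 5.88 in the other species. The 17 hepatocyte markers moved the same way: they summed to 15966 to 40755 scaled reads in naked mole-rat hearts, 4173 to 9016 in Damaraland, 4450 to 6731 in guinea pig and 536 to 1836 in mouse hearts. As a percentage of the species' liver mean, Hnf4a was 2.24, 0.938 and 2.58 in the naked mole-rat hearts and the markers were 1.44, 0.566 and 1.32. The part of liver RNA in these heart values was not tested.

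**Figure D5:**
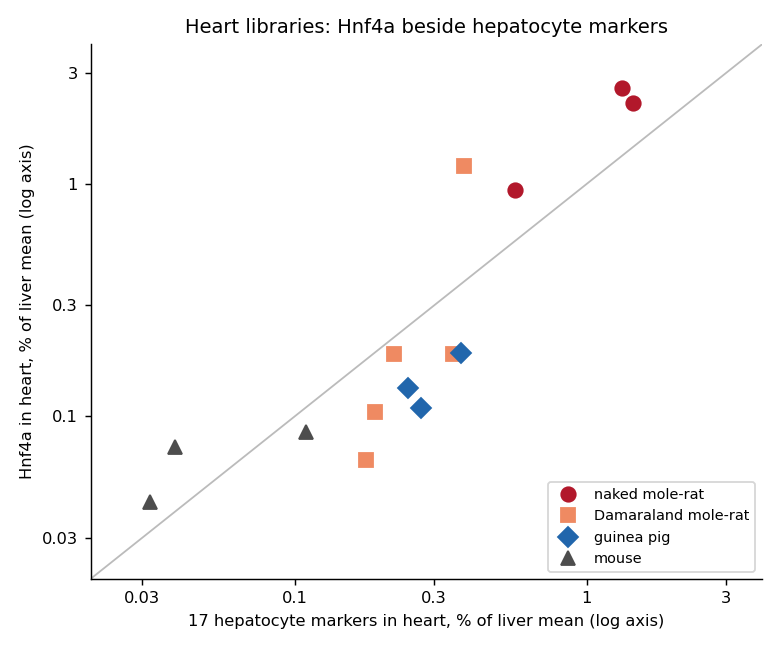
Hnf4a in each heart library as a percentage of its mean in the species' liver, against the same percentage for the sum of 17 hepatocyte markers, on log axes; the grey line marks equal percentages and the tables of the tissues were scaled separately. The 3 naked mole-rat hearts are highest on both axes except that Damaraland replicate 2, at 1.20%, is above naked mole-rat replicate 2 for Hnf4a.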

How the data were processed

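RNA-seq of liver (14 libraries, main analysis) and heart (14, described only) was used. The authors deposited variance-stabilised values that resemble log2 expression, 1 table per tissue. The submitters' processing notes name cutadapt, Salmon, DESeq2 and GRCm38, with no role. How genes were assigned across species is not given in the sources used here. The tables hold 26 further columns, which were not used.

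Inverting the transform gave whole reads for 100% of values (tolerance 0.001 reads), which give depth and scaled reads. Symbols were matched for 13921 of 13928 identifiers. Genes with a liver mean under floor + 1 were left out, leaving 10887. limma 3.58.1 in R 4.3.3 was fitted to all 14 liver libraries, with 1 coefficient per species, a variance trend and Benjamini-Hochberg adjustment per contrast. A gene called in both mole-rats passed in all 4 mole-rat against outgroup contrasts with 1 sign, and a gene called in a species alone passed against the other 3. Named genes were the members, the 3 nearest to each, up to 2 per direction of each list called in both mole-rats, and Alb, Cyp7a1 and Afp; 1 further gene is not reported here. Members and lists were chosen with earlier results of these data known. Alternatives covered thresholds, filter, scaling, variance model, weights, replicate block, voom and each library left out. No sequences of these genes are printed.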

Additional observations from a re-analysis of the deposited data

Results flagged for a closer look

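In groups of 4 or 5 libraries, 18 sets of values of the 6 members were checked for an animal far from the rest, and 4 were found. Chance gives about 1 in 20 for normally distributed values. That rate does not hold for sets mostly at 0 reads, and sets from the same libraries are not independent. Hnf4a in naked mole-rat liver replicate 1 was 13.69, against 13.30 to 13.35 in the other 3. Nr5a2 in Damaraland liver replicate 1 was 9.97, against 10.30 to 10.37; it stayed above every naked mole-rat liver. Hnf4a in Damaraland heart replicate 2 was 7.75, against 5.98 to 6.39, with 160 reads against 8 to 25. Foxa2 in the same heart was 5.58, against 0 reads in the other 4, and rests on 1 read. With the others at 0, any read would have been flagged.

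Prox1 differed between naked mole-rat and mouse in opposite directions in the tissues: every naked mole-rat was above every mouse in liver (difference 0.68) and below every mouse in heart (difference -0.79). The difference between the tissues was not tested, since the tables were transformed separately.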

How the results depend on the processing

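Dropping the minimum difference moved all 13 counts by over 1.5 times, by construction: to 7367, 7133, 6988, 7137, 6919 and 6406 genes for the 6 species pairs (in the order naked minus Damaraland, naked minus guinea pig, naked minus mouse, Damaraland minus guinea pig, Damaraland minus mouse, guinea pig minus mouse), 7407 for the mean of the mole-rats minus the outgroups, 1733 for both mole-rats, 2670, 2346, 2308 and 2726 for naked mole-rat, Damaraland mole-rat, guinea pig and mouse alone, and 19 for the member calls. Requiring each species mean to be 1 above the floor, which tests fewer genes, gave 633 for Damaraland alone. Member calls summed over the pairs were 7 with only the 2 species of a pair in the fit, 8 to 10 under the other settings and 7 to 10 with each library left out. Calls of Onecut1, of Prox1 in naked mole-rat against guinea pig, and of Foxa3 and Hnf4a in Damaraland mole-rat against guinea pig changed, as given above; Prox1 was also 0.96 under quantile normalisation. Of 1044 member values, 1010 kept their state of called or not called, and most of these were not called in either fit. A call was gained in 29, of which 14 came from dropping the minimum difference, and was lost in 5. Changes of sign among calls numbered 0. Leaving out libraries for named genes of the other lists was chosen after seeing the data. With 1 mouse left, its spread was assumed to be that of the other groups. Replicate numbers did not pair the animals: 5 of 16 same-numbered pairs correlated above 0.1, and in 12 of 32 combinations of a library and another species the own number matched best. A replicate block gave 9 member calls, adding Foxa3 in Damaraland mole-rat against guinea pig (-1.19). Other counts under the replicate block stayed within 1.5 times.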
